A study of Mus musculus with 6 samples.

Results

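The 28 genes described here mark the oligodendrocyte lineage in the mouse cervical spinal cord. They were given as a list of symbols, 18 genes of myelinating oligodendrocytes and 10 genes of their precursors. All 28 matched 1 identifier each among the 54532 identifiers of the tables. Cervical cords of 6 C57BL/6 mice were sampled: 3 served as controls, and in 3 an allergic contact dermatitis (ACD) had been raised with squaric acid dibutylester (SADBE), a skin sensitiser. The ACD mice were given 20 µl of 1% SADBE in acetone on the shaved abdomen on 3 days and, 5 days later, on the shaved nape on 3 days. The control mice had acetone on the nape, and it is not clear from the labels if their abdomen had been sensitised too. Each library was taken as 1 mouse. The sources used here do not give age, sex, or days of dissection and library preparation, so handling and group cannot be told apart.

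Oligodendrocytes wrap the axons of the central nervous system in myelin, a stack of membranes held together by a small set of abundant proteins and rich in galactolipids. They arise from precursor cells that carry the PDGF receptor and the NG2 proteoglycan, persist in the adult cord, and pass through a committed stage marked by Gpr17 and Enpp6 before they make myelin. The transcription factors Olig1, Olig2 and Sox10, listed here with the precursors, stay on in mature oligodendrocytes, and Myrf is needed to turn on the myelin genes.

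The window around the start of transcription (250 bases before and 50 after it, RefSeq, GRCm38.p6) was at hand for 19 of the 28 genes. It was not at hand for Mbp, Myrf, Enpp2, Fa2h, Trf, Olig1, Gpr17, Sox10 and C1ql1. The windows of 5 myelinating genes are shown. Mal, Cldn11 and Cnp were higher in every ACD library than in every control. The windows of Cnp, Opalin and Aspa each hold more than 1 of the motifs searched for, and Aspa was the 1 myelinating gene with a lower mean in ACD. Each is written 5′ to 3′ on the strand of its gene, and capitals mark a match on either strand to ACAAAG (bound by SOX factors), the palindrome CAGCTG (an E-box bound by OLIG factors), CTGGCAC (bound by MYRF) or TATAAA (the sequence of the TATA box, marked at any position).
Mal, chr2:127656646-127656945, minus strand: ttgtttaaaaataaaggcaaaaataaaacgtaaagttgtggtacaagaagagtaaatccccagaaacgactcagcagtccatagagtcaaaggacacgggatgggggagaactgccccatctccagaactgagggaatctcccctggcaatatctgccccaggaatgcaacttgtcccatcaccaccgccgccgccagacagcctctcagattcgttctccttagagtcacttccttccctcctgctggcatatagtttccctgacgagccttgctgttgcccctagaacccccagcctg
Cldn11, chr3:31149670-31149969, plus strand: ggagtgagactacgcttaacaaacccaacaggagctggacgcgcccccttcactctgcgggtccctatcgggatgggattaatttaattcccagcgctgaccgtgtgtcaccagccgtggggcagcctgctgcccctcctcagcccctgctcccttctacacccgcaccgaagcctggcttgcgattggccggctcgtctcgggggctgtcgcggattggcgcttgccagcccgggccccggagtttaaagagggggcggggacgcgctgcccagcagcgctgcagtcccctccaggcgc
Cnp, chr11:100574689-100574988, plus strand: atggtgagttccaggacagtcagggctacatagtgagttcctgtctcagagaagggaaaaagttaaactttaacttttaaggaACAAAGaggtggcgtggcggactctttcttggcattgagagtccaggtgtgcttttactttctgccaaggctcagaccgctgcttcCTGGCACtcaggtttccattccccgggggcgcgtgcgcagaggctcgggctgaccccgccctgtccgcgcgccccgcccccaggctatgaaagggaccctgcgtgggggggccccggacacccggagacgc
Opalin, chr19:41077064-41077363, minus strand: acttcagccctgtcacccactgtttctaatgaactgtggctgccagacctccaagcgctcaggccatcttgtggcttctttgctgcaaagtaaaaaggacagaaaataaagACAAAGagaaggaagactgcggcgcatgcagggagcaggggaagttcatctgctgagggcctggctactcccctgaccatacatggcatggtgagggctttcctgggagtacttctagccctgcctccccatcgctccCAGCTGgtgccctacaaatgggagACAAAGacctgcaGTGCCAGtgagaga
Aspa, chr11:73324588-73324887, minus strand: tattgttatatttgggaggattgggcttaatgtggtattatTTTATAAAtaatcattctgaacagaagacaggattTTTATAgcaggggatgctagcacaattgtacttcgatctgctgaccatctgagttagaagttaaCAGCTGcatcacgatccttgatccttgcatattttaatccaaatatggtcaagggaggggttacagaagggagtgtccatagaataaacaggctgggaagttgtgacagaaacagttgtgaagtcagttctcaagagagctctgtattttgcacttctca
None of the 4 motifs is a part of another. ACAAAG was present in 8 of 21 windows of 13 myelinating genes (38.1%), in those of Cnp, Gjb1, Mag, Mobp, Opalin and Tspan2, against 18.7% of all 32851 windows. CTGGCAC was present in 4 of the 21 (19%), in Cnp, Mag and Opalin, against 5.01% of all windows. CAGCTG was present in 2 (9.52%), Aspa and Opalin, against 16.3%, and TATAAA in 2 (9.52%), Aspa and Gjb1, against 13.6%. In the 6 windows of precursor genes TATAAA was present once, in Olig2, and none of the other motifs was found. Neither the Mal nor the Cldn11 window holds any of the 4. Gal3st1, Gjb1, Mag and Tspan2 have several windows each, those of Gal3st1 and Mag overlap in part, and a match is only a run of letters.

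All 28 genes passed the filter of a mean of at least 0.1 FPKM (the deposited unit, fragments counted per exon length and library depth), as did 21369 of all genes. The steps between low values put the number of reads to which FPKM was scaled at 16916600 to 20245576 per library. Reads recovered over all genes summed to 0.976 to 1.027 times that number in controls and to 1.04 to 1.068 times in ACD, more in every ACD library than in every control. The members rested on a mean of 74.2 reads for Bmp4, the fewest, to 418100 for Mbp, where more reads give a smaller counting error. Myelin transcripts were abundant in every library: Mbp alone made up 0.676% to 1.08% of all summed FPKM of a library and the 18 myelinating genes 1.51% to 2.26%. With limma, 927 of the 21369 genes (4.34%) had an adjusted p under 0.05; 386 (1.81%) were higher in ACD and 541 (2.53%) lower. The share of calls that were higher, 41.6%, was 22.8% with each library scaled to the same FPKM sum (TPM) and 65.2% in a fit corrected for exon length and GC content.

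One of the 18 myelinating genes, Trf, rose in ACD and none fell, and none of the 10 precursor genes passed in either direction. At an unadjusted p of 0.05, 6 myelinating genes were higher and none lower, and 3 precursor genes were higher and 1 lower, beside 10.5% higher and 11.8% lower of all genes. With voom on recovered reads 3 myelinating genes (Trf, Mal and Cldn11) and 3 precursor genes (Gpr17, Olig1 and Pdgfra) passed, all higher, where 7.91% of all genes passed (3.28% higher, 4.63% lower). In the length- and GC-corrected fit 2 myelinating (Trf and Mal) and 2 precursor genes (Gpr17 and Pdgfra) were higher, where 6.5% of all genes passed (4.24% higher, 2.26% lower). Among genes with at least 10 mean reads, an alternative chosen after seeing the data, 2 myelinating (Trf and Mal) and 1 precursor gene (Gpr17) were higher, where 7.27% passed (3.42% higher, 3.86% lower). After TPM scaling Trf alone passed, where 4.21% of all genes did (0.959% higher, 3.25% lower). The median fold change, the log2(FPKM + 0.1) value of ACD less that of control, was 0.28 over the myelinating genes, 0.19 over the precursor genes and -0.01 over all genes tested. A value above 0 was found for 17 of 18 myelinating and 9 of 10 precursor genes (16 and 8 after TPM scaling), and for 48.6% of all genes. Without Trf the myelinating median was 0.27. TPM scaling moved the median of all genes to -0.10, and the myelinating median lay 0.29 and the precursor median 0.20 above it. This scaling multiplies all genes of a library by the same factor, so it could hardly change these distances from those of the unscaled fit. In the length- and GC-corrected fit these distances were 0.23 and 0.12.

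**Figure D1:**
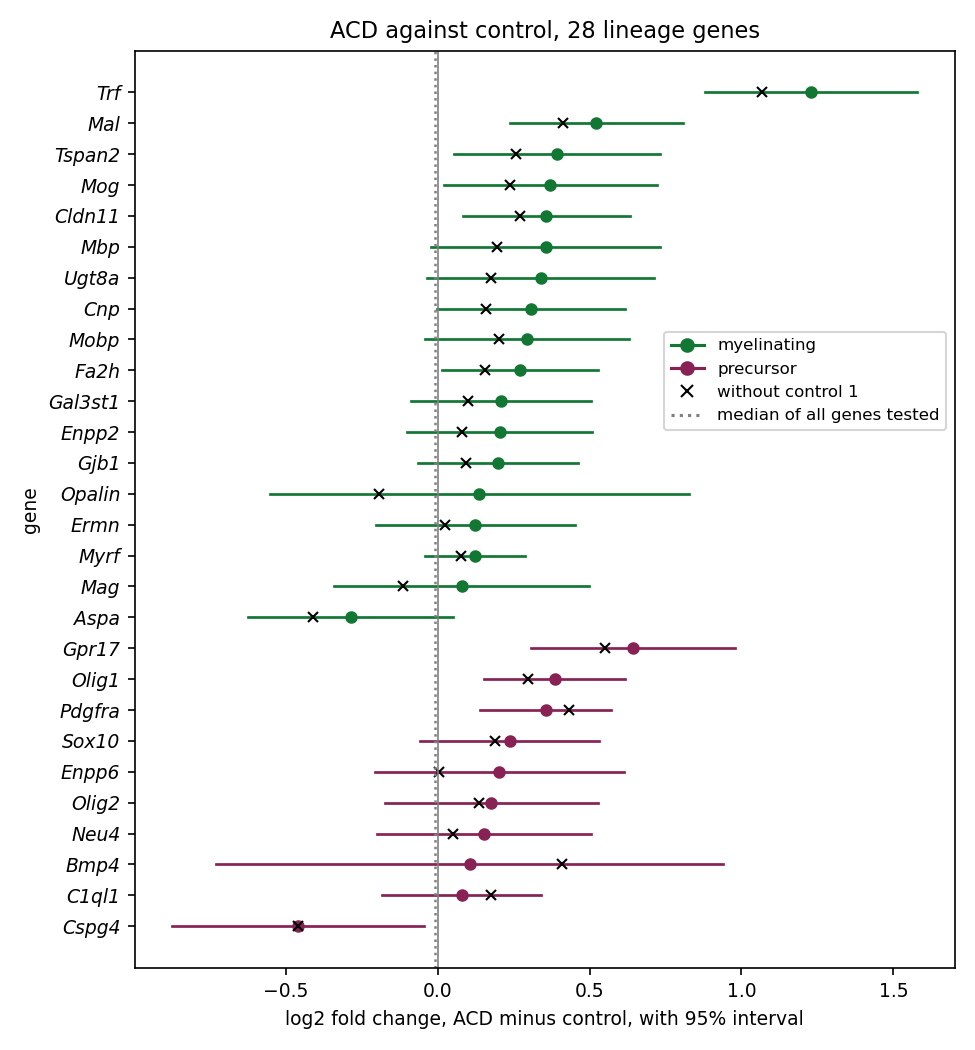
Log2 fold change of each gene, ACD minus control (x axis, log2(FPKM + 0.1) scale), by gene (y axis). Points are estimates of limma, lines their 95% intervals, crosses the estimates without control 1 and the dotted line the median of all genes tested; Trf at 1.23 stands to the right of every other gene, and most crosses of myelinating genes lie left of their points.

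The control library 1 stood apart in the myelinating genes. It had the lowest of the 6 values in 17 of the 18, against 20.1% of all genes whose mean reached 1 FPKM, and ACD 1 had the highest in 12. The median deviation of the myelinating genes from their mean over the libraries was -0.40 (log2) in control 1, 0.08 in control 2 and -0.13 in control 3. It was 0.23, 0.13 and 0.04 in ACD 1, 2 and 3, so control 2 lay between ACD 2 and ACD 3. Over all genes tested that deviation was within 0.01 of 0 in each library. Without control 1 the median fold change of the myelinating genes was 0.16 in place of 0.28, with 15 of 18 above 0, and the precursor median was 0.18. Trf passed without control 1 as well (1.07). Control 1 was also the lowest library in 5 of 5 blood genes, whose summed level was 100.1, 280 and 389 FPKM in controls and 481, 772 and 557 in ACD; the part of blood in these values was not tested. In bulk tissue a change in the number of oligodendrocytes and a change in RNA per cell cannot be told apart.

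**Figure D2:**
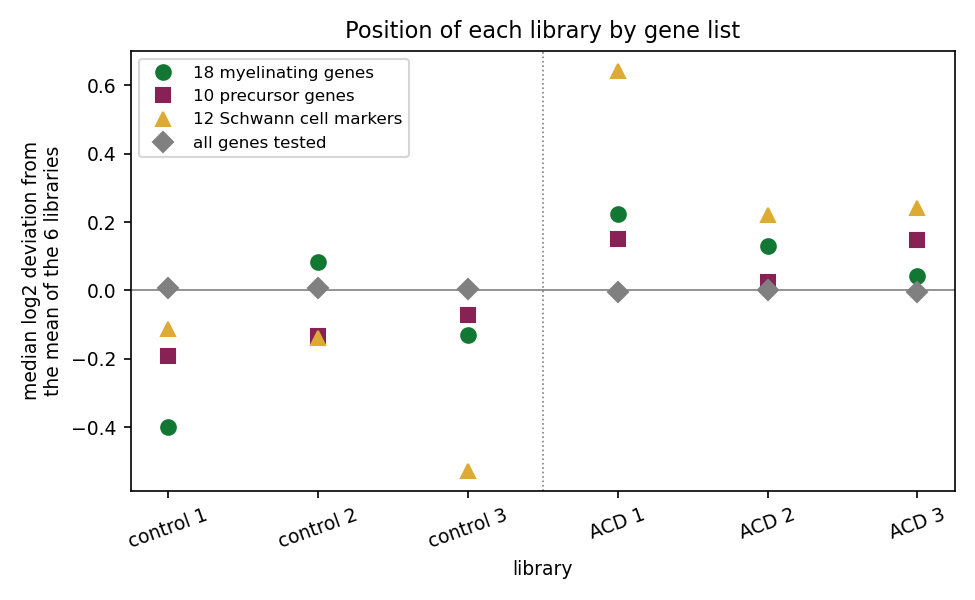
Median log2 deviation from the mean of the 6 libraries (y axis) for each library (x axis), for the 18 myelinating genes, the 10 precursor genes, the 12 Schwann cell markers and all genes tested. Control 1 is the lowest library for the myelinating genes at -0.40, and control 3 is the lowest for the Schwann cell markers at -0.53. ACD 1 is the highest library for both, at 0.225 and 0.643.

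Trf encodes transferrin, the iron carrier that oligodendrocytes make in the cord. It was at 13.2, 17.8 and 19.3 FPKM in controls 1 to 3 and at 39.8, 42.4 and 35.1 in ACD 1 to 3. The 3 ACD values were all well above the 3 controls, and the ratio of the means was 2.33 (16.8 ± 3.21 and 39.1 ± 3.72, SD, n = 3). The log2 fold change was 1.23 (SE 0.15, limma adjusted p = 0.0117). Under 15 alternatives it lay between 1.07 and 1.34 and passed each time, with adjusted p of 0.000431 to 0.0474. The gene lies at chr9:103204001-103230444 (GRCm38, as are all coordinates here) on the minus strand. Of its 3320 exon bases, 2108 (63.5%) also belong to Gm20425, an overlapping gene model of the same strand that is listed at 0 in all 6 libraries. No read of the shared exons was therefore counted for Gm20425. Whether such reads were counted for Trf is not given in the sources used here. If not, both its FPKM and its fold change rest on the other 1212 bases. Of these, 457 lie only in retained-intron or decay transcripts, and the level of Trf relative to other genes is uncertain. The 15 alternatives all start from the same deposited values, so they do not bear on this. Choroid plexus also makes Trf and Enpp2. Its defining transcript Ttr, looked up after the values were seen, was at 0 to 0.331 FPKM with its highest value in control 3. The part of choroid plexus in the values of Trf and Enpp2 was not tested.

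**Figure D3:**
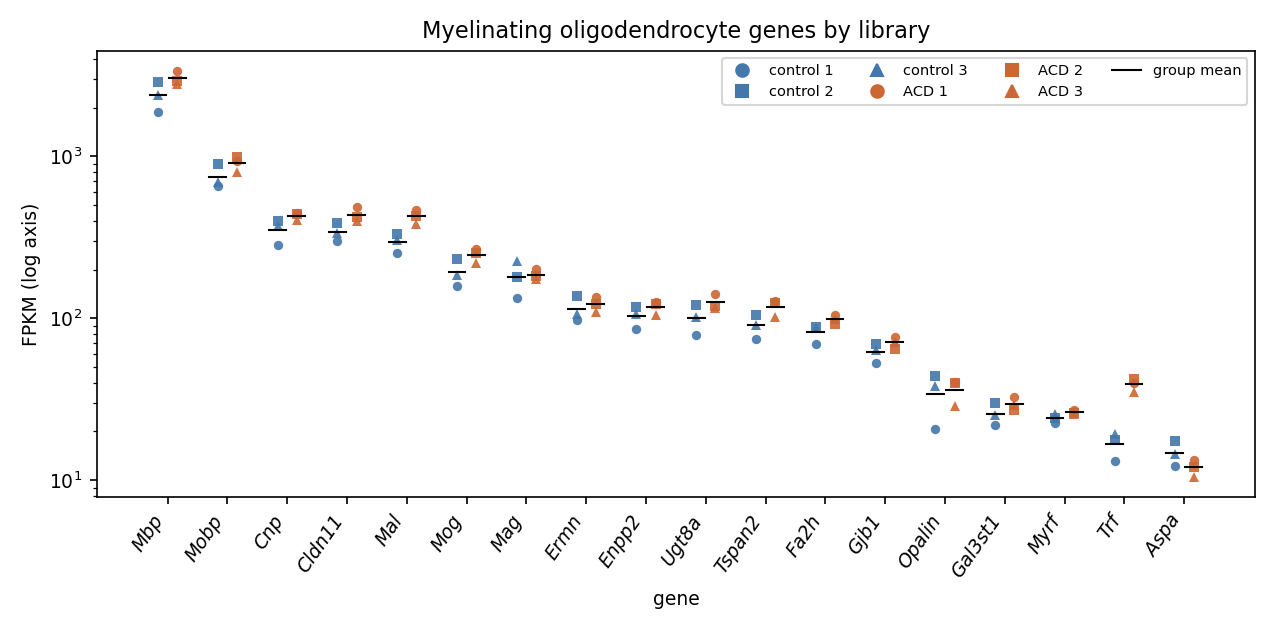
FPKM of the 18 myelinating genes (y axis, log scale) by gene (x axis, ordered by the control mean). Blue points are controls, orange points ACD, shapes give the replicate and bars the group mean; Trf shows a wide gap between the groups, and control 1 is the lowest point in 17 genes.

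Among the proteins of compact myelin, Mbp (myelin basic protein), which seals the inner faces of the membrane, had the highest level of the 28. It was at 1892, 2887 and 2410 FPKM in controls and 3369, 2908 and 2813 in ACD. Control 2 lay above ACD 3, so the groups overlapped, and the log2 fold change was 0.36 (95% interval -0.02 to 0.73, adjusted p = 0.244). Without control 1 it was 0.20. Mobp, a basic protein of the same layer, was at 654, 902 and 691 FPKM in controls and 940, 998 and 801 in ACD, with control 2 above ACD 3 (0.29, interval -0.04 to 0.63).

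Mal, a raft-associated proteolipid of myelin membranes, was at 254, 333 and 306 FPKM in controls and 466, 431 and 382 in ACD (chr2:127633226-127656695, minus strand). All ACD values were above all controls, and the log2 fold change was 0.52 (SE 0.12, adjusted p = 0.0595), just outside the threshold. It passed with voom (adjusted p = 0.0109), in the length- and GC-corrected fit (0.0483) and among genes with at least 10 mean reads (0.0400). Cldn11 forms the tight junctions between myelin layers. It was at 300.3, 387 and 336 FPKM in controls and 486, 423 and 400.5 in ACD, again without overlap (0.36, SE 0.12, adjusted p = 0.133). Its adjusted p was 0.0475 with voom. Every ACD value was above every control in 5 of 18 myelinating genes (Trf, Mal, Cldn11, Cnp and Fa2h) as in 13.1% of all genes, and none was lower in that way (15.5% of all genes).

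Cnp, an enzyme of the cytoplasmic channels in myelin, was at 283, 399 and 370 FPKM in controls and 447, 439 and 403 in ACD. Control 2 and ACD 3 were next to each other, and the fold change was 0.31 (interval -0.00 to 0.62, adjusted p = 0.228). The outermost surface of the sheath carries Mog, a glycoprotein at 158, 234 and 186 FPKM in controls and 267, 254 and 220 in ACD. Its groups overlapped (0.37, interval 0.02 to 0.72, adjusted p = 0.202). Tspan2, a tetraspanin of the myelin membrane, was at 74.3, 105 and 91.4 in controls and 128, 124 and 102 in ACD (0.39, interval 0.05 to 0.73, adjusted p = 0.171). In both genes control 2 was above ACD 3.

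Mag, the adhesion molecule on the side of myelin that faces the axon, was at 134, 179.5 and 226 FPKM in controls and 202, 183 and 174 in ACD. Controls 1 and 3 lay on either side of all ACD values, and the fold change of 0.08 (interval -0.34 to 0.50) became -0.12 without control 1 and -0.02 after TPM scaling, so it shows no direction. Opalin, a sialylated glycoprotein of central myelin, was at 20.6, 43.9 and 38.1 in controls and 40.1, 39.6 and 28.9 in ACD. Its fold change of 0.14 (interval -0.55 to 0.83) became -0.19 without control 1. The cytoskeletal gene Ermn was at 97.6 to 137 in controls and 109.7 to 136 in ACD (0.12, interval -0.20 to 0.45). Intervals this wide include a fall as well as a rise.

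The enzymes that make the galactolipids of myelin were spread between 0.21 and 0.34. Ugt8a, which adds galactose to ceramide, was at 78.8, 121 and 101 FPKM in controls and 141, 119 and 116 in ACD (0.34, interval -0.03 to 0.71, adjusted p = 0.261). Fa2h, which hydroxylates the fatty acids of these lipids, was at 69.5, 88.9 and 87.6 in controls and 104, 91.8 and 99.5 in ACD. Its groups did not overlap, with control 2 close below ACD 2 (0.27, interval 0.01 to 0.53, adjusted p = 0.203). Gal3st1, which adds sulfate to make sulfatide, was at 22.0 to 30.1 in controls and 27.0 to 32.7 in ACD (0.21, interval -0.09 to 0.50).

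Aspa, the enzyme that frees acetate from N-acetylaspartate for lipid synthesis, had the lower mean in ACD. It was at 12.3, 17.4 and 14.5 FPKM in controls and 13.4, 12.05 and 10.5 in ACD. Control 1 lay below ACD 1, and the log2 fold change was -0.29 (interval -0.62 to 0.05, adjusted p = 0.290). It was -0.16 without control 2, -0.41 without control 1 and -0.12 in the length- and GC-corrected fit. Enpp2 (autotaxin), which makes lysophosphatidic acid outside the cell, was at 85.8 to 117 in controls and 105 to 126 in ACD (0.20, interval -0.10 to 0.51). The transcription factor Myrf was at 22.5, 24.1 and 25.6 in controls and 27.3, 25.9 and 25.4 in ACD. It had the smallest SE of the 28 genes (fold change 0.12, SE 0.07, interval -0.04 to 0.29). Gjb1, the connexin 32 of the gap junctions within myelin, was at 53.2 to 69.3 in controls and 64.9 to 76.5 in ACD (0.20, interval -0.06 to 0.46).

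Of the surface receptors of the precursor stages, Gpr17, a receptor of committed cells, had the largest difference of the 10. It was at 10.4, 11.5 and 13.7 FPKM in controls and 20.9, 15.4 and 19.6 in ACD. Every ACD value was above every control, and the log2 fold change was 0.64 (SE 0.14, adjusted p = 0.0540). It passed with voom (adjusted p = 0.0113), in the length- and GC-corrected fit (0.0449) and among genes with at least 10 mean reads (0.0326). Of its exon bases 3.6% overlap Lims2 on the opposite strand. Lims2, an adapter of focal adhesions, was itself 1 of the genes that rose, and without known strand their shared bases cannot be split.

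Pdgfra, the receptor through which PDGF keeps precursors dividing, lies at chr5:75152292-75198215 on the plus strand. It was at 6.00, 5.20 and 5.04 FPKM in controls and 6.94, 6.54 and 7.36 in ACD, without overlap (0.36, SE 0.09, adjusted p = 0.0784). Its adjusted p was 0.0272 with voom and 0.0406 in the length- and GC-corrected fit. Fibroblasts of the meninges also carry Pdgfra. None of 10 fibroblast markers passed with limma or voom, 3 were higher and none lower at an unadjusted p of 0.05, and none was at 0. Their median fold change was 0.37, with 9 of 10 above 0 and 4 higher in ACD without overlap, against 48.6% and 13.1% of all genes. Without control 1 it was 0.67, with 10 of 10 above 0 and 2 that passed, and Pdgfra was at 0.43; without control 3 it was 0.19, with 6 of 10 above 0, and Pdgfra at 0.31. The summed level of the markers was 34.4 to 78.2 FPKM in controls and 61.9 to 74.5 in ACD, and their part in the result was not tested.

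Cspg4, the NG2 proteoglycan, had the lower mean in ACD. It was at 1.83, 1.53 and 2.18 FPKM in controls and 1.54, 1.11 and 1.297 in ACD, where control 2 and ACD 1 were nearly equal. The fold change was -0.46 (SE 0.18, interval -0.87 to -0.04, adjusted p = 0.187). Pericytes also make Cspg4. None of 10 pericyte and mural markers passed with limma or voom (1 higher and none lower at an unadjusted p of 0.05), 7 had a fold change below 0 (median -0.12), and their summed level was 93.5 to 114 FPKM in controls and 88.7 to 115 in ACD. ACD 2 was the lowest library in 6 of the 10; without it their median was 0.08, with 7 of 10 above 0, and the fold change of Cspg4 was -0.35. No marker of this list was at 0, and their part in the result was not tested.

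**Figure D4:**
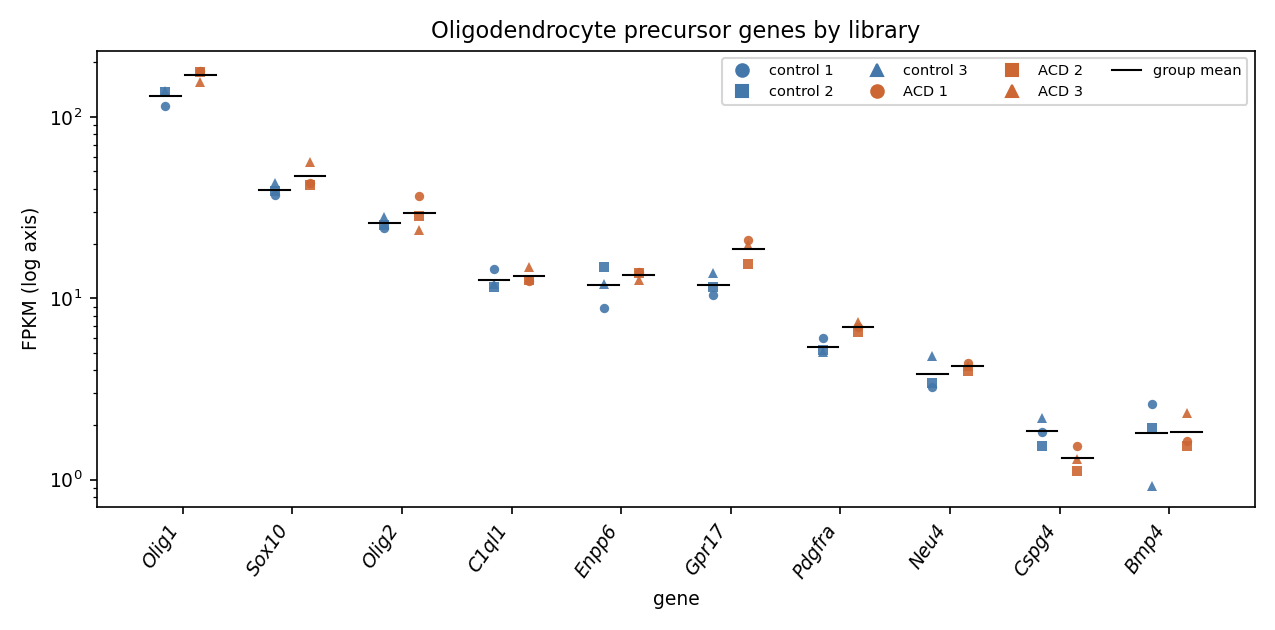
FPKM of the 10 precursor genes (y axis, log scale) by gene (x axis, ordered by the control mean). Blue points are controls, orange points ACD, shapes give the replicate and bars the group mean; the groups of Olig1, Gpr17 and Pdgfra do not overlap, and those of Bmp4 lie over each other.

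Among the transcription factors, Olig1 was at 115, 137 and 140 FPKM in controls and 178, 177 and 156 in ACD. The groups did not overlap, and the fold change was 0.39 (SE 0.10, adjusted p = 0.0757; 0.0216 with voom). It lies at chr16:91269772-91271933, next to Olig2, which specifies the lineage. Olig2 was at 24.4, 25.2 and 28.03 in controls and 36.5, 28.6 and 23.9 in ACD, with ACD 3 below all controls (0.18, interval -0.17 to 0.53). Sox10, which acts with Myrf on the myelin genes, was at 37.1, 39.0 and 43.2 in controls and 43.2, 41.9 and 56.5 in ACD (0.24, interval -0.06 to 0.53). Gpr17, Olig1 and Pdgfra were the 3 precursor genes without overlap, all higher in ACD, and none was lower without overlap, against 13.1% and 15.5% of all genes.

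The other 4 precursor genes showed little difference for their spread. Enpp6, a choline phosphodiesterase of cells that begin to myelinate, was at 8.80, 14.8 and 12.1 FPKM in controls and 13.9, 13.7 and 12.6 in ACD (0.20, interval -0.21 to 0.61). Its fold change was 0.005 without control 1 and 0.38 without control 2. Neu4, a sialidase, was at 3.25 to 4.79 in controls and 3.95 to 4.41 in ACD (0.15, interval -0.20 to 0.51). Bmp4, a growth factor of the committed stage that holds back differentiation, was at 2.60, 1.92 and 0.923 in controls and 1.64, 1.54 and 2.33 in ACD. It rested on 36 to 99 reads a library, and its interval (-0.73 to 0.94) allows a large change either way. C1ql1, a secreted C1q-like protein of precursors, was at 11.5 to 14.4 in controls and 12.5 to 14.9 in ACD (0.08, interval -0.18 to 0.34; -0.02 after TPM scaling).

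The myelinating genes varied together over the 6 libraries. The Pearson correlation of log2 values with Mbp had a median of 0.94 over the other 17 myelinating genes, with 13 above 0.8, and of 0.08 over all genes whose mean reached 1 FPKM. It was highest for Ugt8a (0.999) and lowest for Aspa (0.12) and Mag (0.60). Over the 10 precursor genes the median was 0.41, from -0.56 for Cspg4 to 0.92 for Enpp6, with Olig1 at 0.88. The 3 genes most like Mbp among 13649 were Ugt8a, Cyp51, an enzyme of cholesterol synthesis (0.994), and Upf3a, a factor of nonsense-mediated decay (0.993). Correlations with Pdgfra had a median of 0.37 over the myelinating and 0.48 over the other precursor genes, and the 3 genes most like it were Tspan13 (0.995), Pmpcb (0.995) and Pabpc4 (0.993). These are descriptions over 6 libraries, in which the genes share depth, scaling and the 2 groups. The summed FPKM of the myelinating genes was 18.9, 24.2 and 19.9 times that of the precursor genes in controls and 22.0, 21.3 and 19.8 times in ACD, so the groups overlapped in this ratio. The precursor sum was 224 to 262 FPKM in controls and 299 to 320 in ACD. Olig1 alone was 115 to 140 of it in controls and 156 to 178 in ACD. Olig1, Olig2 and Sox10 stay on in mature oligodendrocytes, so this ratio does not set mature cells against precursors alone.

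Other genes of mature oligodendrocytes had a smaller median than the 18. None of 30 passed with limma, where 1.81% of all genes were higher and 2.53% lower. At an unadjusted p of 0.05, 4 were higher and 2 lower, beside 10.5% and 11.8% of all genes. With voom 2 were higher and 1 lower, beside 3.28% and 4.63% of all genes. The same shares of all genes apply to the counts of the lists that follow. The median of the 30 was 0.10, 0.00 after TPM scaling and -0.00 without control 1, and its difference from that of the 18 was not tested. Control 1 was the lowest library in 21 of these 30 as well. The smallest p was that of Plxnb3, a semaphorin receptor, at 12.7 ± 0.754 FPKM in controls and 9.76 ± 0.761 in ACD (SD, n = 3), with a fold change of -0.38 (SE 0.08, adjusted p = 0.0501). Its 3 ACD values were all below the 3 controls, and it passed with voom, after TPM scaling and among genes with at least 10 mean reads. Plxnb3 did not pass under the other alternatives, among them all 6 fits with 1 library left out and the length- and GC-corrected fit.

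Of 10 genes of premyelinating cells, Lims2 rose (0.50, SE 0.10, adjusted p = 0.0384); its level was 6.66 ± 0.596 FPKM in controls and 9.46 ± 0.824 in ACD. The median of the 10 was 0.25. With any 1 library left out Lims2 did not pass (adjusted p 0.0577 to 0.131), nor after TPM scaling (0.101). None of 15 other precursor genes passed (median 0.03, -0.06 after TPM scaling; 3 higher and 1 lower at an unadjusted p of 0.05; 1 lower with voom). The smallest p was that of the protocadherin Pcdh15, with means of 1.07 ± 0.116 in controls and 0.666 ± 0.0406 in ACD (-0.60, SE 0.16, adjusted p = 0.0850). Among 14 further transcription factors and inhibitors of the lineage none passed (median 0.03, -0.07 after TPM scaling; 2 higher at an unadjusted p of 0.05 and none with voom). None of 18 signals to the lineage passed (median 0.13; 4 higher and 4 lower at an unadjusted p of 0.05, none with voom). Pdgfa, the ligand of Pdgfra, had means of 13.7 ± 1.35 in controls and 16.5 ± 0.371 in ACD (0.27, SE 0.08, adjusted p = 0.115).

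Of 16 further genes of myelin lipid metabolism none passed (median 0.10, -0.00 after TPM scaling; 3 higher at an unadjusted p of 0.05, none with voom). Elovl1, which extends very long fatty acids, was at 16.8 ± 0.627 and 20.7 ± 1.96 FPKM (0.30, SE 0.08, adjusted p = 0.0888). Of 12 genes listed for adhesion at the node and paranode, where myelin loops meet the axon, Cadm4 rose and none fell. Their median was -0.05, and 0.07 in the length- and GC-corrected fit. Not all genes of this list are restricted to these sites. Cadm4, an adhesion molecule on the myelinating cell, rose from 182 ± 14.9 to 246 ± 4.31 (0.44, SE 0.08, adjusted p = 0.0289); Schwann cells make it too. Of the 6 fits with 1 library left out it passed in that without control 2; in the other 5 the adjusted p was 0.0508 to 0.110. Of 13 genes reported to rise in oligodendrocytes in disease, H2-D1, H2-K1 and B2m rose and none fell (median 0.33), where 1.81% of all genes rose. B2m, the light chain of class I molecules, went from 131 ± 20.5 to 204 ± 19.2 (0.65, SE 0.12, adjusted p = 0.0369). These 3 genes are made by many cell types, and of the 6 fits with 1 library left out B2m passed in that without control 2 (adjusted p 0.0719 to 0.119 in the other 5). H2-K1 did not pass without ACD 2 (0.0529) or ACD 3 (0.0588), and H2-D1 did not without ACD 1 (0.0573), ACD 2 (0.0529) or ACD 3 (0.0520).

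Markers of other cells were read in the same libraries. Schwann cells, which myelinate the spinal roots, also make Mbp, Mag, Cnp, Mal, Gjb1 and Sox10, and roots can remain on a dissected cord. None of 12 Schwann cell markers passed with limma, and 3 were higher with voom, as were 3.28% of all genes. At an unadjusted p of 0.05, 7 were higher and none lower, beside 10.5% and 11.8% of all genes. In 9 every ACD library was above every control, as in 13.1% of all genes, and the median was 0.62. The summed level of the list was 155 to 244 FPKM in controls and 332 to 471 in ACD, and no marker was at 0. Control 3 was the lowest library in 11 of the 12 and ACD 1 the highest in 10. In the 18 myelinating genes control 1 was the lowest in 17 and ACD 1 the highest in 12. The part of root tissue in the values of the shared genes was not tested.

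Of 10 astrocyte markers 1 (Gfap, an intermediate filament protein) rose (0.48, adjusted p = 0.0332; 0.0503 after TPM scaling, and 0.0601 to 0.123 in the 5 fits that left out a library other than control 2), with a median of 0.16. Of 10 microglia markers 4 (C1qa, C1qb, C1qc and Tmem119) rose, where 1.81% of all genes did, with a median of 0.28. Without a filter on low values 1 of them passed. With any 1 library other than control 2 or 3 left out none of these 4 passed. None of 12 neuron markers passed (median 0.12; 2 higher at an unadjusted p of 0.05, 1 higher with voom). None of 8 endothelial markers passed (median -0.13; 1 lower at an unadjusted p of 0.05 and with voom). Their median was 0.03 without control 1, with 5 of 8 above 0, and -0.02 without ACD 2, with 1 that passed as higher. None of 5 blood genes passed (median 0.96, 0.55 without control 1; 3 higher at an unadjusted p of 0.05, none with voom).

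**Figure D5:**
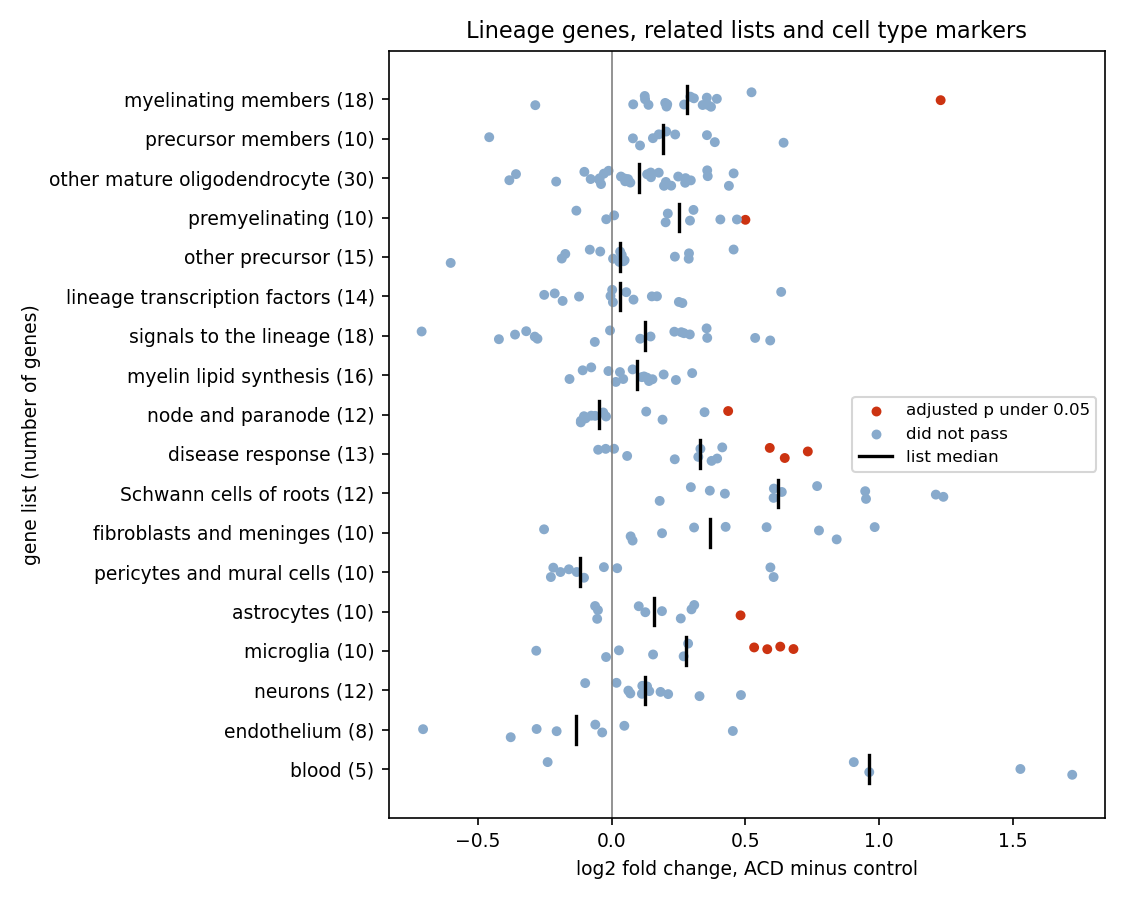
Log2 fold change, ACD minus control (x axis), of each gene of the 2 member groups, 8 related lists and 8 cell type marker lists (y axis, number of genes in brackets). Red points passed an adjusted p of 0.05, blue points did not, and bars are list medians; the myelinating median is 0.28, the precursor median 0.19 and the Schwann cell median 0.62.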

How the data were processed

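RNA of 6 cervical cords was sequenced and the values were deposited as FPKM by the authors, 1 table per library. Per the submitters' processing notes, with no roles given, the build was mm10 and the tools included DESeq2 1.16.1, HISAT2 2.0.5 and featureCounts 1.5.0-p3; the sources used here do not give the library kit, strand or annotation release. Symbols were found for 54409 of 54532 identifiers, and exon lengths, GC content and coordinates came from GENCODE M21 (GRCm38, the build called mm10) for 54495.

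Values of log2(FPKM + 0.1) were tested with limma 3.58.1 (R 4.3.3; linear model, trended and robust eBayes) for genes whose mean reached 0.1 FPKM, with Benjamini-Hochberg adjustment over all genes tested and a threshold of 0.05. Every adjusted p given for a gene is limma's (voom included). Multiplying FPKM by exon length and depth gave whole reads, within 0.05, for 96.7% to 97.0% of values above 0 per library; these recovered reads served for depth and for voom, an alternative whose library size is the number of reads to which FPKM was scaled. The 15 alternatives were pseudocounts of 1 and 0.01, no filter, TPM scaling, a length and GC correction, voom, a replicate block, plain eBayes, leaving out each of the 6 libraries, and a minimum of 10 mean reads. Levels are FPKM, with mean ± SD over n = 3. P-values set the difference of the group means against the spread among 3 libraries a group, each taken as 1 mouse. In limma that spread is moderated over all genes tested.

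The 28 genes and all other lists were chosen with earlier results of these data known, so the lists' counts are descriptions. Named genes are the 28, the passing genes of each related or marker list (up to 4) or the gene of smallest p, and the 3 most like Mbp and Pdgfra; not all are given with values.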

Additional observations from a re-analysis of the deposited data

How the results depend on the processing

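The number of genes called moved from 927 to 556 without a filter, 1690 with voom, 181 with the replicate block and 420 with plain eBayes. Leaving out 1 library gave between 180 (without ACD 3) and 627 (without control 3): 244 without control 1, 579 without control 2, 274 without ACD 1 and 287 without ACD 2. Myelinating genes called higher went from 1 to 2 in the length- and GC-corrected fit, 3 with voom and 2 among genes with at least 10 mean reads (an alternative chosen after seeing the data). Precursor genes called higher went from 0 to 2, 3 and 1 under the same settings; no gene of either group was called lower under any of the 15 alternatives. Of 420 values of the 28 genes under these alternatives, 403 kept direction and call, 10 gained a call and 7 changed sign. The signs that changed were those of Bmp4 (0.106; -0.291 to 0.41 with 1 library left out, below 0 without control 3 and, at -0.07, without ACD 3), C1ql1 (0.079; -0.018 after TPM scaling, -0.004 without ACD 3, 0.177 without control 1), Mag (0.08; -0.017 after TPM scaling, -0.115 without control 1, 0.261 without control 3) and Opalin (0.137; -0.192 without control 1, 0.353 without control 2). None of these was called, and the cause was not tested.

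The replicate numbers of the labels are shared by the groups. Deviations of same-numbered libraries from their group means correlated at -0.071, 0.077 and 0.050 over 13650 genes. Differently numbered libraries correlated at -0.142 to 0.072. Control 1 correlated best with ACD 3 (0.072), and controls 2 and 3 with the ACD library of their own number. Values this close to each other cannot decide if the numbers pair anything. With the replicate block 1 myelinating gene (Trf) and 0 precursor genes were called. Of the 28 genes Bmp4 had the fewest reads, as few as 36 in a library.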
